A study of Homo sapiens with 6 samples.

Results

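The genes described are 9 that carry peptide antigen to the cell surface on MHC class I molecules: the heavy chains HLA-B, HLA-C, HLA-E and HLA-F, the light chain B2M, the peptide transporter subunits TAP1 and TAP2, the loading chaperone TAPBP and the transcriptional regulator NLRC5. They were chosen by gene symbol, and all 9 of them were found among the 18132 genes measured. The array reads them with 43 probe sets annotated to a single member, of 49293 probe sets in all, and 1 further probe set is annotated to both HLA-B and HLA-C. Affymetrix arrays measured total RNA of cells given as HCT116, a human colorectal carcinoma line grown in RPMI-1640 with serum. There are 3 arrays labelled Ctrl (treatment given as control) and 3 labelled CSF3, the gene of granulocyte colony-stimulating factor. The labels do not state whether CSF3 was a protein added to the medium or a gene expressed in the cells, nor for how long. They do not tie the 3 arrays of a group to separate cultures, so p-values reflect the spread between 6 samples that may differ only technically. The labels also give the Ctrl arrays 1 code and the CSF3 arrays another, so whatever that code marks cannot be told apart from the group.

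MHC class I molecules show the immune system fragments of the proteins a cell is making. The proteasome cuts proteins into peptides, the TAP1-TAP2 pump moves these into the endoplasmic reticulum, and tapasin (TAPBP) holds an empty heavy chain beside the pump until a peptide fits. The heavy chain needs the light chain, beta-2 microglobulin, to fold and leave for the surface, where CD8 T cells read it. HLA-E presents mainly signal peptides of other class I chains to receptors of natural killer cells. Transcription of these genes answers to interferon through IRF1, to NF-κB, and to NLRC5, which binds class I promoters together with RFX, CREB/ATF and NF-Y proteins. Tumour cells, those of the colon among them, often lower this pathway.

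On their brightest probe sets the 4 heavy chain genes and TAPBP read lower on the CSF3 arrays, and the other members were not called. With the brightest probe set standing for each gene, 5 of the 9 members fell at a limma adjusted p under 0.05, none rose and 4 were not called. By unadjusted p under 0.05 in the same limma test, 0 members rose and 5 fell. HLA-C, HLA-E and HLA-B fell by 0.52, 0.52 and 0.49 on the log2 scale, so their CSF3 signals were 69.5%, 69.8% and 71.3% of the Ctrl signals if the logarithm has base 2. TAPBP fell by 0.40 and HLA-F by 0.25. Which members were called depended on the setting. With all probe sets of a gene averaged, 6 fell: HLA-C, HLA-E, B2M, TAP1, TAP2 and NLRC5, but not HLA-B, HLA-F or TAPBP. With limma's trend and robust options 7 fell, B2M and NLRC5 beside the 5. HLA-C and HLA-E fell in all 3 of these fits. The background for these counts is high: 27.1% of all genes fell and 45.4% rose, and of genes with a mean log2 signal of at least 6, as 8 of the 9 members have, 50.4% fell and 22.7% rose. The members' share of falls is thus close to that of other genes of such signal. The median change was -0.37 over the members, 0.16 over all genes tested and -0.16 over genes with a mean signal of at least 6.

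Several array-wide values differed between the groups and stand beside every result here. The 3' minus 5' signal gap of GAPDH, a sign of RNA integrity and of labelling, was 0.306 ± 0.0067 on Ctrl arrays and 0.682 ± 0.0026 on CSF3 arrays (log2, SD, n = 3), and the medians of 18 hybridisation and 24 poly-A control probe sets were 1.53 and 1.52 higher on CSF3 arrays. For all 3 differences the exact permutation test (two-sided) gave p = 0.1, its lower limit with 3 arrays a group. The median change was -0.16 for genes with a mean signal of at least 6 and 0.26 for those under 6. The part of these values in the results was not tested. CSF3 itself read 4.83 ± 0.30 and 5.96 ± 0.04 (limma adjusted p = 0.000371). Of the epithelial markers, KRT18, KRT8 and CLDN4 read 7.26, 6.37 and 5.68 on Ctrl arrays, and CDX2 and GPA33 read 4.45 and 3.70. EPCAM, KRT19, CDH1 and VIL1 read only 3.63, 2.61, 2.20 and 1.43 there. Keratins 8 and 18 thus read above 6 on Ctrl arrays, while these last 4 epithelial genes were dim for cells labelled as a colorectal line. The array's 23 background probe sets had a median of 1.42 on Ctrl arrays, and the highest read 9.43 (both are means of the 3 arrays). Without detection calls a dim signal is not known to be above background. Between the groups KRT8 fell by 1.32 to 5.06 (limma adjusted p = 2.98e-05) and EPCAM by 0.33, while CLDN4, GPA33, CDX2, KRT18 and KRT19 rose, by 0.22 to 0.72. Of the leukocyte markers PTPRC, the pan-leukocyte gene, read 1.42 and 1.66, and CD68, a lysosomal gene of macrophages, read 10.11 and 9.82. In bulk RNA, fewer cells of a type and less RNA per cell cannot be told apart.

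To show promoter elements of these genes, the 250 bases before the RefSeq start of transcription (GRCh38.p14) are printed for 5 members. They are among the 7 with an entry in its promoter table (HLA-E and NLRC5 have none there). The bases are as given by the reference and not as carried by these cells. HLA-B (chr6:31357180-31357429, minus strand) and HLA-C (chr6:31272093-31272342, minus strand) are the classical heavy chains that fell together. TAPBP (chr6:33314079-33314328, minus strand) fell on its main probe set. B2M (chr15:44711267-44711516, plus strand) and TAP1 (chr6:32853705-32853954, minus strand, the farther upstream of its listed starts) were not called there. Capitals mark matches on either strand to GGGNNTTNC for NF-κB, GAAANNGAA and GAANNGAAA for interferon regulatory factors, CCAAT for NF-Y and TGACG for CREB/ATF.
HLA-B: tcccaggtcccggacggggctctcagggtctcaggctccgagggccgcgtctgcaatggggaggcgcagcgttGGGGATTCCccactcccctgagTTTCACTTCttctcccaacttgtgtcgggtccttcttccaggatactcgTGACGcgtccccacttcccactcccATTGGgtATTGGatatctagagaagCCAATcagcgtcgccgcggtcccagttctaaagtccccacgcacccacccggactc
HLA-C: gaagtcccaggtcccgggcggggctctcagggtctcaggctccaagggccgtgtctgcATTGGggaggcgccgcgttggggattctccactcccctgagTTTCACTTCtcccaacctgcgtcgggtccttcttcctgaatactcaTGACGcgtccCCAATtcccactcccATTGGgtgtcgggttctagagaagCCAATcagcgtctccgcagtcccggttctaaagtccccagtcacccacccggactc
TAPBP: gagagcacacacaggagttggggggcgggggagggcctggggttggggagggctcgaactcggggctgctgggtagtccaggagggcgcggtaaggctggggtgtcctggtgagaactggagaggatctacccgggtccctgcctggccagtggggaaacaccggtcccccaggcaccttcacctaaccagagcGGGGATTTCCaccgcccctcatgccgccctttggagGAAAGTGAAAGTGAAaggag
B2M: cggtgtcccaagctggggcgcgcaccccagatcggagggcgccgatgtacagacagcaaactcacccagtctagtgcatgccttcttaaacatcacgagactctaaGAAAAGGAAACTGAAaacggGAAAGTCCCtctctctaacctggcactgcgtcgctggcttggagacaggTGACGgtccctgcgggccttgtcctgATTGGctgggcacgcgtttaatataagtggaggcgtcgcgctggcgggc
TAP1: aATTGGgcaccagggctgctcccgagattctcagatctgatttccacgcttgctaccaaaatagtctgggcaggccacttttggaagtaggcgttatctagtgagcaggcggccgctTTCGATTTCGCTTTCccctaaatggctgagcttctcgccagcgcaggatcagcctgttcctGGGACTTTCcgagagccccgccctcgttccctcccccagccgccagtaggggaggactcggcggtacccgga

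Among all 35116 promoter windows of this length in the RefSeq table, 14.2% held the NF-κB letters, 6.88% GAAANNGAA, 6.56% GAANNGAAA, 32% CCAAT and 21.2% TGACG. The NF-κB letters, which bear on the p65 signalling named in the series title, stood at -177 to -169 in HLA-B, -124 to -116 in B2M, -72 to -64 in TAP1 and, as 2 overlapping matches, -56 to -47 in TAPBP, counted from the start. They had no match in the HLA-C, HLA-F or TAP2 windows, and the window of the other TAP1 start held none of the 5 motifs. An interferon factor match stood at -155 to -147 in HLA-B, at -151 to -143 in HLA-C and at -155 to -147 in HLA-F, and B2M, TAP1 and TAPBP each held 2 overlapping matches to GAAANNGAA. In TAP2 matches to both forms overlapped between -63 and -50. CCAAT lay at -56 to -52 in both HLA-B and HLA-C. On their brightest probe sets HLA-B and TAPBP fell with the NF-κB letters in their windows, and HLA-C and HLA-F fell without them. Of the members not called there, B2M and TAP1 held the letters and TAP2 did not. The calls of several of these genes changed with the setting, and a part of NF-κB in them was not tested. A match describes letters and does not show that a factor bound there.

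HLA-B and HLA-C encode classical heavy chains, the ones that present most peptides to CD8 T cells. HLA-B (probe set 11755966_x_at) read 10.79, 10.79 and 10.73 on the Ctrl arrays and 10.27, 10.28 and 10.30 on the CSF3 arrays. Every CSF3 value lay below every Ctrl value, with a change of -0.49 ± 0.05 (SE, limma adjusted p = 0.000146). HLA-C (11715316_x_at) read 10.65, 10.75 and 10.68 in Ctrl and 10.19, 10.18 and 10.13 in CSF3, again without overlap and with a change of -0.52 ± 0.05 (limma adjusted p = 0.000154). Groups that do not overlap are common here, at 76.2% of all genes. The other 2 HLA-C probe sets fell too, with changes of -0.56 and -0.50. HLA-B was less uniform. Its second probe set fell by 0.42, but its dimmest, 11762851_at, rose from 3.69 ± 0.09 to 4.48 ± 0.04 (0.78 ± 0.07, limma adjusted p = 6.16e-05 over all probe sets). The limma adjusted p of HLA-B ran from 3.87e-10 to 0.375 over 15 alternatives, and its change from -0.51 to 0.78, the latter resting on this dim probe set. It is the only one of HLA-B or HLA-C without the suffix _x_at or _s_at, which marks probes that can hybridise with more than 1 transcript. The heavy chain genes are close relatives, so their bright probe sets may read each other's RNA, which was not tested. The probe set annotated to both genes read 2.12 ± 0.08 and 1.59 ± 0.16, a change of -0.52 ± 0.09 (limma adjusted p = 0.00202), and is assigned to neither.

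**Figure D1:**
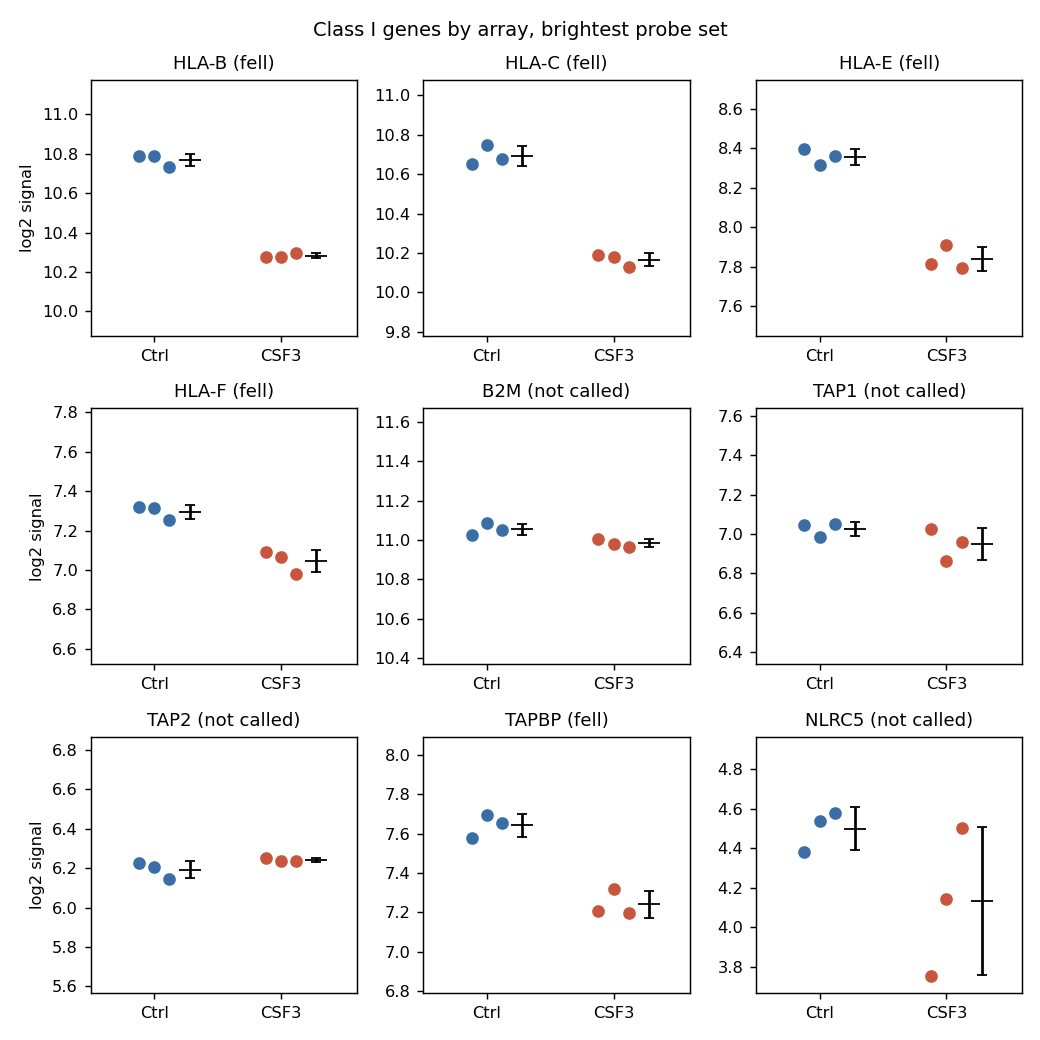
Log2 signal (vertical axis) of the brightest probe set of each of the 9 genes on the 3 Ctrl (blue) and 3 CSF3 (red) arrays; black marks show the mean ± SD, and every panel spans the same 1.3 log2 units. HLA-B, HLA-C, HLA-E, HLA-F and TAPBP sit lower on all CSF3 arrays, B2M, TAP1 and TAP2 move little, and NLRC5 spreads from 3.75 to 4.50 on the CSF3 arrays.

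HLA-E, the non-classical chain seen by natural killer cells, fell on all 6 of its probe sets. The brightest read 8.40, 8.32 and 8.36 in Ctrl and 7.81, 7.91 and 7.80 in CSF3, a change of -0.52 ± 0.06 (limma adjusted p = 0.000206). Its 6 probe sets gave changes from -0.44 to -1.34, so the direction was shared and the size was not. The steepest, 11748332_x_at, read 6.16, 6.28 and 6.20 in Ctrl against 4.97, 4.84 and 4.82 in CSF3 (limma adjusted p = 1.07e-05), and 11753404_x_at fell by 1.13. These 2 were the only probe sets of the 9 genes with a change beyond 1 on the log2 scale. All 6 carry the suffix _x_at or _s_at.

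HLA-F, a non-classical chain that can also appear as an open form without peptide, had 10 probe sets that went both ways. The brightest read 7.32, 7.31 and 7.25 in Ctrl and 7.09, 7.07 and 6.98 in CSF3, a change of -0.25 ± 0.05 without overlap (limma adjusted p = 0.00520). After quantile normalization of the arrays this call was lost (-0.039, limma adjusted p = 0.527, the highest over 15 alternatives, whose lowest was 0.000259). Of the 10 probe sets 4 fell, by 0.25 to 0.35, 2 rose and 4 were not called. The larger rise was that of 11760143_at, from 4.04 ± 0.12 to 4.83 ± 0.04 (0.79 ± 0.07, limma adjusted p = 9.78e-05 over all probe sets). All 4 that fell had Ctrl means of 5.53 or more, and the 6 others had Ctrl means of 4.04 or less, 4 of them from 1.59 to 2.50. Averaged over its probe sets HLA-F changed by 0.046 (limma adjusted p = 0.399), and it has no settled direction.

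B2M, the light chain shared by all class I molecules and encoded outside the MHC on chromosome 15, changed little on its brightest probe set. That probe set, 11756150_at, read 11.03, 11.08 and 11.05 in Ctrl and 11.01, 10.98 and 10.97 in CSF3. The difference of -0.071 ± 0.049 was small though the groups did not overlap (limma adjusted p = 0.222). Over 15 alternatives the limma adjusted p ran from 0.00568 to 0.443: B2M was called as falling with the trend and robust options (0.00568, at the same change) and averaged over its probe sets (-0.16, limma adjusted p = 0.00797). Its 8 probe sets include a pair with identical values on every array (11758148_s_at and 11758192_s_at), which count as 1. Those that fell were 11758299_a_at, from 10.30 ± 0.01 to 9.74 ± 0.03 (-0.55 ± 0.05, limma adjusted p = 0.000117), 11758300_x_at (-0.50 ± 0.05) and 11758193_x_at (-0.16 ± 0.05). In contrast 11758260_x_at rose by 0.18 ± 0.05 (limma adjusted p = 0.0188 over all probe sets), and the remaining 3 distinct ones changed by -0.10 to -0.048. With signals near 10 and above on every probe set, the disagreement is not confined to dim ones. Relative to the brightest B2M probe set, HLA-B, HLA-C and HLA-E changed by -0.42, -0.45 and -0.45 on the same arrays, HLA-F by -0.18 and TAPBP by -0.33. For these 5 gaps, and that of -0.12 between TAP1 and TAP2, exact permutation tests gave p = 0.1, the lower limit, and 0.1 after Benjamini-Hochberg adjustment over the 6 comparisons. The 2 B2M probe sets that fell most, with changes of -0.50 and -0.55, moved about as far as HLA-B, HLA-C and HLA-E. Both are annotated to the same source sequence, so they may not be separate readings.

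**Figure D2:**
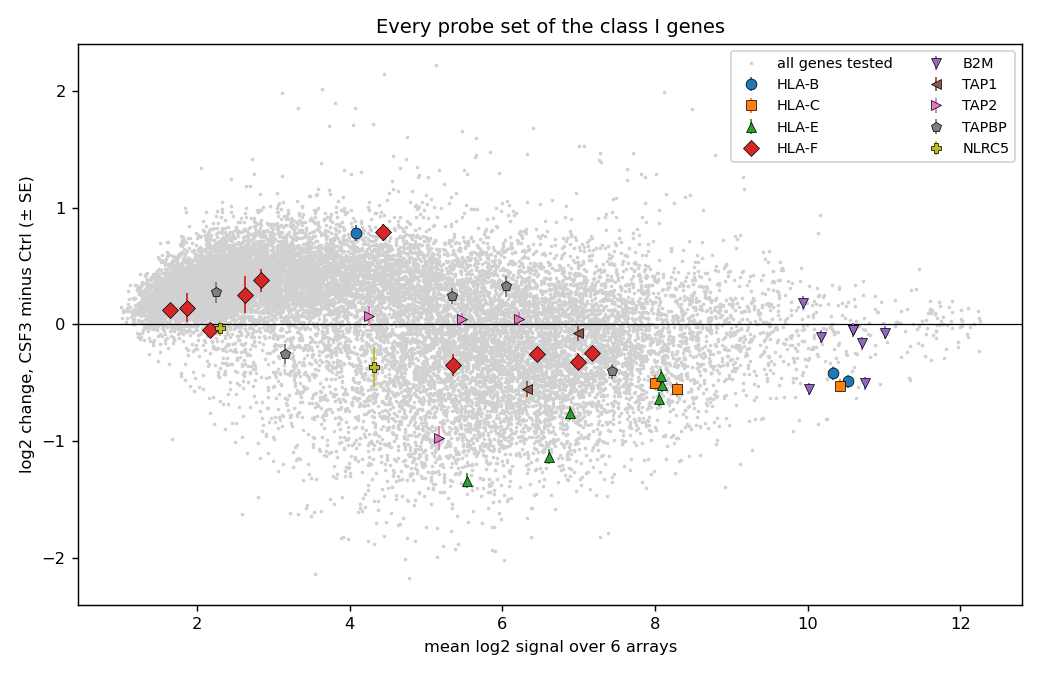
Log2 change from Ctrl to CSF3 with its standard error (vertical axis) against the mean log2 signal over the 6 arrays (horizontal axis) for the 43 probe sets of the 9 genes (coloured symbols), over the brightest probe set of each of 18132 genes (grey). Probe sets of HLA-C and HLA-E lie below 0, those of HLA-F and TAPBP on both sides, and those of B2M between -0.55 and 0.18.

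The 2 subunits of the peptide transporter each had a probe set that fell beside others that did not. TAP1 (11757351_a_at) read 7.04, 6.99 and 7.05 in Ctrl and 7.03, 6.86 and 6.96 in CSF3, overlapping values with a difference of -0.075 ± 0.060 that was not called (limma adjusted p = 0.280). Its other probe set, 11730729_a_at, read 6.63, 6.67 and 6.52 in Ctrl and 6.06, 6.12 and 5.97 in CSF3. That was a fall of 0.55 ± 0.07 (limma adjusted p = 0.000401 over all probe sets). TAP2 (11723058_a_at) read 6.23, 6.21 and 6.14 in Ctrl and 6.25, 6.24 and 6.23 in CSF3, without overlap but with a difference of only 0.048 ± 0.050 (limma adjusted p = 0.408). Of its other 3 probe sets 2 changed by 0.048 and 0.072 without a call. The last, 11723059_a_at, read 5.68, 5.55 and 5.76 in Ctrl and 4.49, 4.77 and 4.80 in CSF3, a fall of 0.97 ± 0.10 (limma adjusted p = 0.000141 over all probe sets). After quantile normalization the brightest probe sets of TAP1 and TAP2 rose, by 0.15 and 0.31 (limma adjusted p = 0.0382 and 0.00130 over all genes), so neither gene has a settled direction. Over 15 alternatives their limma adjusted p ran from 0.000498 to 0.613 and from 0.00130 to 0.747.

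TAPBP, the chaperone that bridges the transporter and the empty heavy chain, was split. Its brightest probe set, 11757321_a_at, read 7.58, 7.69 and 7.65 in Ctrl and 7.21, 7.32 and 7.20 in CSF3, a fall of 0.40 ± 0.06 (limma adjusted p = 0.000922). The next 2 by signal, 11756618_x_at and 11756617_a_at, rose, by 0.33 ± 0.09 and 0.24 ± 0.07 (limma adjusted p = 0.0129 and 0.0141 over all probe sets). These 2 are annotated to the same source sequence and may not be separate readings. Of the remaining 2, both dim, 1 fell by 0.26 and 1 rose by 0.27. The mean over all 5 changed by 0.038 (limma adjusted p = 0.478, the highest over 15 alternatives, whose lowest was 5.09e-06).

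NLRC5, the class I transactivator, was read by 2 probe sets. Like the brightest ones of HLA-E, HLA-F, TAP1, TAP2 and TAPBP, both lay above the array's median background and below its highest background probe set. The brighter, 11755758_s_at, read 4.38, 4.54 and 4.58 on Ctrl arrays and 3.75, 4.14 and 4.50 on CSF3 arrays. The CSF3 arrays spread widely (SD 0.37 against 0.11) and that of replicate 3 lay within the Ctrl range, and the change of -0.37 ± 0.17 was not called (limma adjusted p = 0.0889). Without CSF3 replicate 3 it was -0.55 (limma adjusted p = 0.00842, against a range up to 0.639 over 15 alternatives), so this library bears on the call. The other probe set read 2.32 ± 0.01 and 2.28 ± 0.08.

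Counted over all 43 probe sets of the 9 genes, 7 rose, 22 fell and 14 were not called by limma, against 37.1% rising and 28.4% falling among all probe sets. Direction went with signal. Of the 26 with a mean signal of at least 6, 18 fell and 2 rose, where 51.8% of all such probe sets fell and 20% rose. Of the 17 dimmer ones 4 fell and 5 rose, where 23% fell and 41% rose. The brighter ones belong to only 8 genes, so they are not independent counts. Of the 25 probe sets with the suffix _x_at or _s_at 16 fell and 2 rose, and of the 18 others 6 fell and 5 rose. The median change was -0.37 in the former and 0.0071 in the latter. The shares among all probe sets with or without these suffixes were not counted, so this contrast is not shown to be particular to the members. With these suffixes left out and 1 probe set per gene, 26.3% of all genes fell and 44.5% rose. Suffix also went with gene, since all probe sets of HLA-C and HLA-E carry it.

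Genes that supply, trim and load class I peptides were counted as a list of 13. Of these 8 fell, 3 rose and 2 were not called by limma, with a median change of -0.18 and a median mean signal of 7.37. These shares are near those of all genes with a mean signal of at least 6, of which 50.4% fell and 22.7% rose. Calnexin (CANX) and calreticulin (CALR), the lectin chaperones that fold the heavy chain, fell by 0.81 ± 0.05 and 1.02 ± 0.08 (limma adjusted p up to 4.61e-05), and all 9 and both of their probe sets fell. CANX read 10.64, 10.64 and 10.65 on Ctrl arrays and 9.87, 9.78 and 9.85 on CSF3 arrays. CALR read 7.88 ± 0.03 against 6.86 ± 0.14. ERAP1, which trims peptides in the endoplasmic reticulum, fell by 0.78 ± 0.07, on 2 of 5 probe sets, and its relative ERAP2 fell by 0.89 ± 0.09. TAPBPL encodes TAPBPR, a relative of tapasin that edits the peptides bound, and rose from 4.46, 4.56 and 4.47 to 5.44, 5.51 and 5.64 (1.03 ± 0.07, limma adjusted p = 2.68e-05). Its other probe set changed by 0.18 without a call. Of the immunoproteasome subunits PSMB8 fell by 0.59 ± 0.06, PSMB9 fell by 0.17 ± 0.06 and PSMB10 rose by 0.21 ± 0.06.

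Of 24 regulators of class I transcription 12 fell, 3 rose and 9 were not called, with a median change of -0.15 and a median mean signal of 5.78. Of all genes 27.1% fell and 45.4% rose, and of those with a mean signal of at least 6 50.4% fell and 22.7% rose. After quantile normalization 10 regulators fell and 8 rose, where 20.1% of all genes fell and 39.2% rose. RFX5, the DNA-binding subunit of the RFX complex through which NLRC5 reaches class I promoters, read 7.87, 7.85 and 7.91 in Ctrl and 6.77, 6.74 and 6.77 in CSF3. Its fall of 1.12 ± 0.05 (limma adjusted p = 9.46e-06) was seen on all 3 probe sets. The other RFX subunits RFXANK and RFXAP fell by 0.59 ± 0.07 and 0.55 ± 0.09. CREB1 fell by 1.07 ± 0.08 on its brightest probe set, though 1 of its 7 rose. IFNGR2, a chain of the interferon-gamma receptor read by 1 probe set, fell by 0.86 ± 0.05, and JAK1 by 0.70 ± 0.06. The other chain of that receptor, IFNGR1, changed by 0.093 and was not called. RELA and NFYA changed by 0.040 and -0.011 without a call, while NFKB1 and NFYC fell by 0.33 and 0.49. IRF1, the interferon-induced activator of class I genes, went the other way: 4.71, 4.96 and 4.91 became 6.49, 6.50 and 6.37, a rise of 1.59 ± 0.08 (limma adjusted p = 1.24e-05) on the brightest of 4 probe sets that all rose, by 0.51 to 1.59. CIITA, the class II transactivator related to NLRC5, rose by 0.44 ± 0.07.

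**Figure D3:**
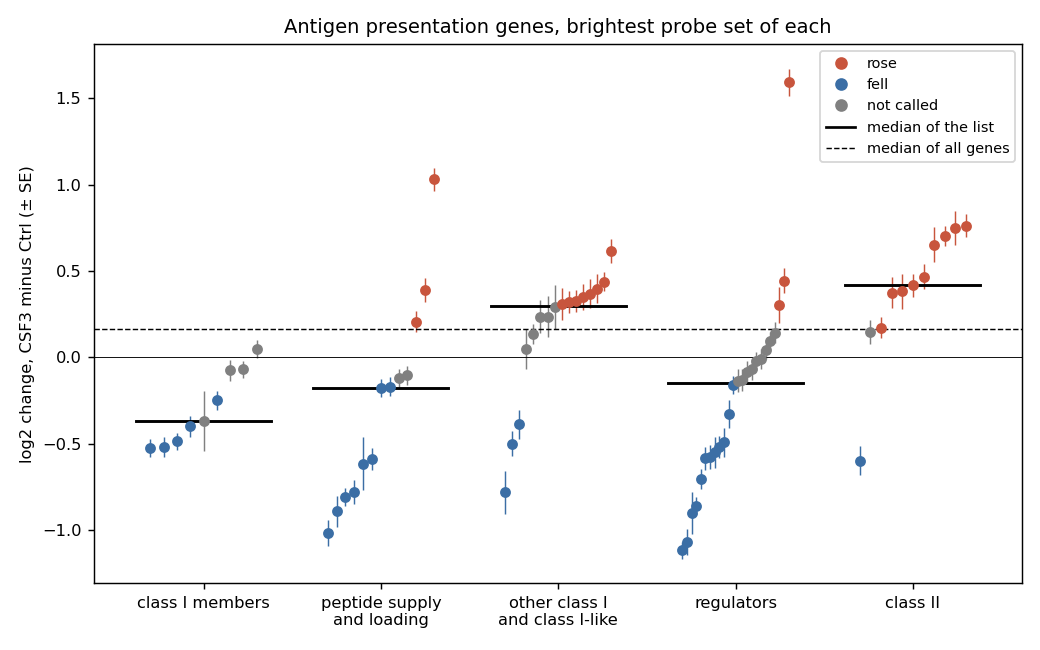
Log2 change from Ctrl to CSF3 with its standard error (vertical axis) for the 9 class I members and 4 further lists (horizontal axis), 1 point per gene, red for genes that rose, blue for genes that fell and grey for those not called; black bars are list medians and the dashed line is the median of all genes, 0.16. The medians of members, peptide supply and regulators are below 0, and those of the class I-like and class II lists, at 0.30 and 0.42, are above it.

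Of 16 other class I and class I-like genes 8 rose, 3 fell and 5 were not called, with a median change of 0.30 and a median mean signal of 4.20. That is near the background, since 45.4% of all genes rose, and 53.9% of those with a mean signal under 6, whose median change was 0.26. MICA, a stress-induced ligand of the NKG2D receptor on natural killer cells, read 7.48, 7.40 and 7.40 in Ctrl and 8.10, 8.11 and 7.92 in CSF3. It rose by 0.62 ± 0.07 (limma adjusted p = 0.000213) with all 3 probe sets rising, and its relatives MICB and ULBP2 rose by 0.32 ± 0.06 and 0.33 ± 0.06. ULBP3, another NKG2D ligand, fell by 0.50 ± 0.07 on the brightest of 3 probe sets that all fell. FCGRT, which encodes the neonatal Fc receptor and pairs with beta-2 microglobulin, rose by 0.44 ± 0.06. HFE, the iron-regulating class I-like protein, fell by 0.78 ± 0.12 on 1 of 9 probe sets only, the other 8 not being called.

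Class II genes, which normally mark professional antigen-presenting cells, were mostly dim, with 10 of 11 under a mean signal of 6 (HLA-DPB1 read 6.05) and a median mean signal of 3.77. Of the 11, 9 rose, 1 fell and 1 was not called, with a median change of 0.42, where 53.9% of all genes under a mean signal of 6 rose and 18.4% fell, with a median change of 0.26. After quantile normalization 6 rose and 1 fell. HLA-DPA1 rose by 0.76 ± 0.07, HLA-DQA1 by 0.70 ± 0.06 and CD74, the invariant chain, by 0.75 ± 0.10 (limma adjusted p up to 0.000520), while HLA-DMB fell by 0.60 ± 0.08. All 4 probe sets of HLA-DPA1 and all 5 of CD74 rose, but only 2 of 4 of HLA-DQA1 did, and HLA-DMB fell on 2 of 5. CD74 read 3.43, 3.76 and 3.43 in Ctrl and 4.36, 4.30 and 4.21 in CSF3. Of the 9 measured leukocyte markers 6 rose and 1 fell on the same arrays, with an array median of 2.54 to 2.76 in Ctrl and 2.92 to 3.32 in CSF3. The marker that fell was CD68. Of the endothelial and fibroblast markers 4 of 4 and 5 of 6 rose; for these lists too the share of all genes under a mean signal of 6 that rose is 53.9%. Their part in the class II values was not tested.

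The gene with the array profile most like that of each member was sought, as the smallest root mean square difference of mean-centred log2 values over the 6 arrays. HLA-B was nearest to AGFG1, HLA-C to ST3GAL1, HLA-E to RBMXL1, HLA-F to SEC23A and TAPBP to GOLPH3. B2M was nearest to CCAR2, TAP1 to CNN3, TAP2 to KCNA5 and NLRC5 to RNPC3. The differences ran from 0.0076 for TAP2 to 0.049 for NLRC5, and they describe these 6 arrays only.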

How the data were processed

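Log2 signals of 49395 probe sets on 6 arrays were used as deposited. The log2 scale is read from the values the authors deposited, which run from 0.81 to 12.7, and another base would alter every fold but no test. How background was corrected, probes summarised and arrays normalized is not given in the sources used here. Scanner files were not used here. The precision is limited by the number of arrays.

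Gene names came from GEO's platform annotation: 44988 had 1 gene, 1832 had several and 2473 had none, besides 102 array controls. Entrez identifiers found 18112 of the 18132 genes in RefSeq (GRCh38.p14), with 0 symbols changed. The probe set with the highest mean stood for its gene. CSF3 minus Ctrl was tested with lmFit and eBayes of limma 3.58.1 (R 4.3.3) on 3 against 3 arrays with no covariates and no filter, once over 18132 genes and once over 49293 probe sets, with Benjamini-Hochberg adjustment over each whole table at 0.05. A p for a gene's brightest probe set comes from the first fit unless "over all probe sets" is written; those of other probe sets come from the second. The fit was run on simulated data with few changed genes and no array-wide difference between the groups. These data differ from that setting, so the run does not bear on their array-wide differences.

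The members and lists were chosen with earlier results of these data known. Named are all members, the 4 genes of smallest p in each other list, cell type markers that check the label, CSF3 and the nearest gene of each member; other list genes were named after their values were seen. The splits at a mean signal of 6 were added after seeing the data. Same-numbered arrays of both groups deviated together only weakly (correlations 0.027 to 0.038), so the arrays were not treated as pairs.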

Additional observations from a re-analysis of the deposited data

How the results depend on the processing

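HLA-C and HLA-E kept their fall and their call by limma under each alternative in which they could be tested, except the requirement of a change of at least 1; without _x_at and _s_at probe sets neither could be tested. With that requirement no member fell, 0 probe sets of members rose and 2 fell, 2 processing genes, 0 class I-like, 3 regulators and 0 class II genes were called, and 117 genes rose and 611 fell in all. Without _x_at and _s_at probe sets 1 member rose (HLA-B, 0.78) and 2 fell of 7 tested, 6 member probe sets fell, 7 class I-like and 6 class II genes were called, and HFE changed by 0.0062. After quantile normalization 2 members rose (TAP1 by 0.15, TAP2 by 0.31) and 4 fell; CCAR2, CNN3 and KCNA5 changed by 0.17, 0.083 and -0.15, the HLA-F probe sets 11762089_a_at and 11732354_a_at by -0.068 and -0.078, and the equal B2M pair 11758148_s_at and 11758192_s_at by 0.034. The gaps between groups were then 1.73 for hybridisation controls, 0.361 for GAPDH and 0.503 for ACTB (1.53, 0.376 and 0.600 as deposited). With all probe sets of a gene averaged, HLA-F, TAPBP and TAP2 changed by 0.046, 0.038 and -0.20, HLA-F, TAPBP and HLA-B (-0.041, limma adjusted p = 0.375) lost their calls, and B2M, TAP1, TAP2 and NLRC5 were called as falling (limma adjusted p = 0.00797, 0.000498, 0.00435 and 0.0485). With the trend and robust options 7 members fell. With the 30% dimmest genes left out 4767 genes rose. Leaving out 1 array at a time, 5 to 6 members fell and 0 rose; TAP2 probe set 11741632_a_at ran from -0.014 to 0.13, HLA-F probe set 11762089_a_at from -0.012 to 0.22 and NLRC5 probe set 11729523_a_at from -0.060 to 0.014. With the replicate number as a block 6 members fell, NLRC5 joining them (limma adjusted p = 0.0284), and 8086 genes rose and 4782 fell; each array correlated best with its own number, a hint from the data and not from the design. The causes of these shifts were not tested.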
